A study of Mus musculus with 9 samples.

Results

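Insulin-like growth factor (IGF) genes were compared between nestin-reporter cells of the dentate gyrus (DG) of the hippocampus and of the subventricular zone (SVZ) of the lateral ventricle. The 10 members were chosen by name: the ligand genes Igf1 and Igf2, the receptor genes Igf1r and Igf2r, the binding protein genes Igfbp2, Igfbp3, Igfbp4, Igfbp5 and Igfbp7, and Igfbpl1. All 10 were measured, out of 14477 genes in the table. The mice were of the strain B6.Cg-Tg(Nes-EGFP)1Yamm, in which Nestin regulatory sequence drives green fluorescent protein, and sorting kept the fluorescent cells of either region. Both groups had standard housing and no treatment, with 5 DG and 4 SVZ libraries. The labels give no age and do not say whether a library came from 1 animal or a pool, so the p-values reflect library-to-library spread alone, which may be technical.

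IGF ligands are secreted proteins that act on the tyrosine kinase receptor encoded by Igf1r and promote growth, survival and differentiation of neural precursors. The receptor encoded by Igf2r carries no kinase and takes the ligand of Igf2 into lysosomes. Secreted binding proteins hold the ligands outside the cell, and proteases release them by cutting the binding proteins.

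Levels are given as log2 CPM, where CPM is a gene's reads relative to the total of its library and 1 read was added before the logarithm, and differences as log2 fold change, DG minus SVZ (SE, standard error). Totals over the genes of the table were 33627909 to 41164044 reads in DG libraries and 31126803 to 32528255 in SVZ libraries. Nes, the gene behind the reporter, stood at 5.89 to 6.99 log2 CPM in DG and at 6.87 to 7.61 in SVZ. Markers of the expected lineages mostly differed as labelled. The 6 granule neuron lineage markers averaged 5.46 to 5.65 log2 CPM in DG and 1.81 to 2.38 in SVZ. Of these, 5 were higher in DG, while Prox1 differed little, at a mean of 7.92 in DG and 7.81 in SVZ (log2 fold change 0.11). The 6 ventral GABAergic markers averaged 7.98 to 8.11 in SVZ, 5.41 in DG 2 and at most 1.75 in the other DG libraries. Markers of other cell types also differed. All 8 endothelial, 8 pericyte and smooth muscle, 8 fibroblast and meningeal, 7 astroglial, 6 oligodendrocyte precursor and 5 border macrophage markers were higher in DG, and none of them was at 0 reads in any library.

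Of the 10 members, 5 passed the limma test with the higher level in DG, 3 passed with the higher level in SVZ, and 2 missed its threshold (adjusted p under 0.05 over all genes). The median log2 fold change of the members was 0.79, against -0.07 for all genes. Of all genes, 66.6% passed, 32.9% higher in DG and 33.7% higher in SVZ. In 6 of the 10 members no DG library overlapped an SVZ library, as in 58% of all genes. A share of called members near that of all genes is no result about the family. The sizes and directions of the members are therefore given below by role.

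**Figure D1:**
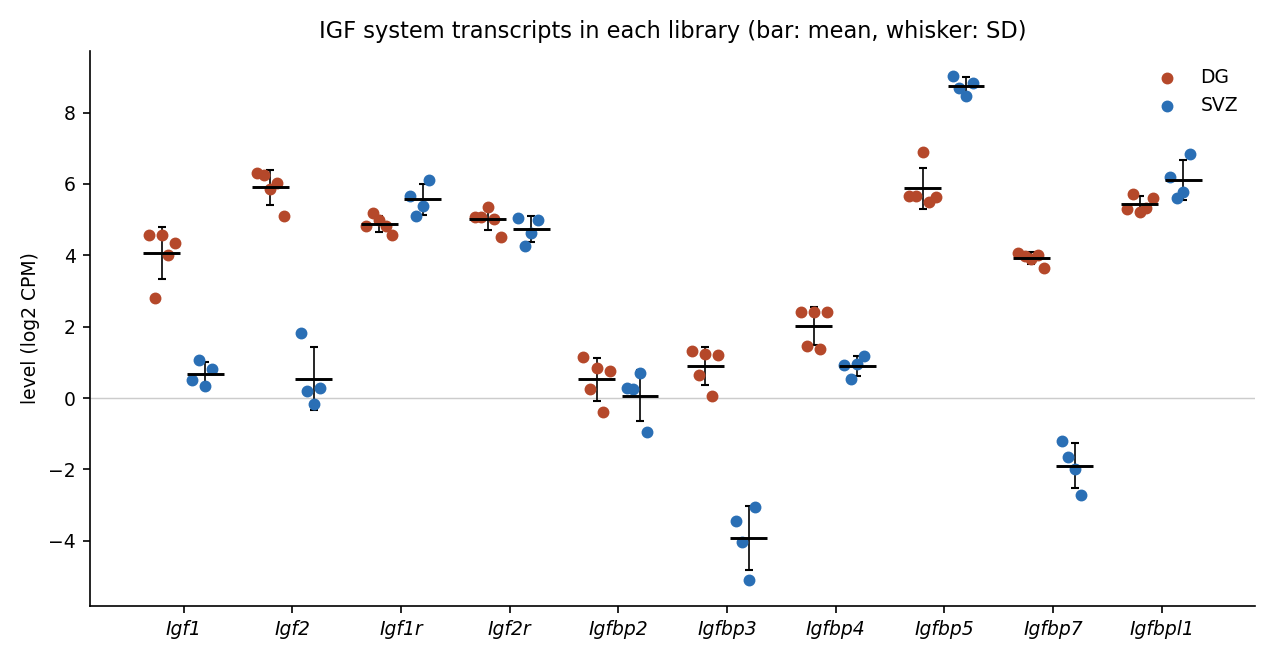
Level of each member (vertical axis, log2 CPM) in the 5 DG and 4 SVZ libraries, 1 point per library, with mean and SD. The groups stand apart without overlap for Igf1, Igf2, Igfbp3, Igfbp4, Igfbp5 and Igfbp7, and DG 3 lies above the other DG libraries for Igfbp5.

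**Figure D2:**
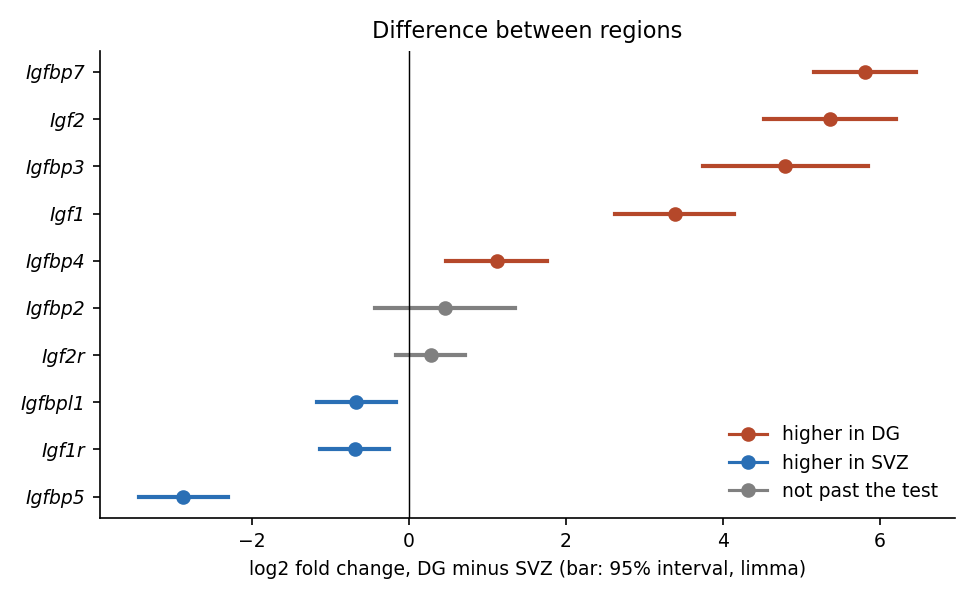
Log2 fold change (horizontal axis, DG minus SVZ) of the 10 members with its 95% interval. Values run from 5.81 for Igfbp7 to -2.88 for Igfbp5, and the intervals of Igfbp2 and Igf2r include 0.

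Both ligand genes were higher in DG. Igf2 (ENSMUSG00000048583, mm10 chromosome 7, 142650766 to 142666816, minus strand), an imprinted gene for a fetal growth factor, stood at 6.30, 6.25, 5.85, 6.02 and 5.10 log2 CPM in DG 1 to DG 5 and at 1.82, 0.21, -0.18 and 0.30 in SVZ 1 to SVZ 4. The lowest DG library lay above all SVZ libraries, with SVZ 1 the highest of its group. The difference was 41.2-fold (log2 fold change 5.37, SE 0.38, limma adjusted p = 5.20e-07), from 1415 to 2724 reads in each DG library and 27 to 112 in each SVZ library. In GENCODE M21, the gene Gm49394 on the same strand shares 62.8% of the exon length of Igf2 and is not in the table. The authors' rule for reads in 2 genes is not given in the sources used here, so the level of Igf2 is uncertain.

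Igf1 (ENSMUSG00000020053, chromosome 10, 87858265 to 87937042, plus strand), the main IGF gene of the postnatal animal, stood at 4.56, 2.82, 4.58, 4.01 and 4.34 log2 CPM in DG 1 to DG 5. In SVZ 1 to SVZ 4 it was 0.49, 1.06, 0.34 and 0.81. All DG libraries lay above all SVZ libraries, and DG 2 was the lowest DG library. The difference was 10.5-fold (log2 fold change 3.39, SE 0.35, limma adjusted p = 7.59e-06).

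The ligand genes varied between libraries along with marker genes of cells other than precursors. The 5 border macrophage markers, which come from macrophages at vessels and meninges, averaged 6.98, 4.80, 6.62, 5.71 and 6.60 log2 CPM in DG 1 to DG 5 and 0.15, 1.28, -1.18 and 0.79 in SVZ 1 to SVZ 4. DG 2 was lowest among DG libraries for these markers and for Igf1, and the SVZ libraries had the same order for both. Summed, these markers took 188.3 to 841.9 CPM in DG and 3.77 to 16.1 in SVZ. The 6 microglia markers had 157.3 to 584.5 CPM in DG and 145.6 to 825 in SVZ, which overlap. Within DG they had the same order of libraries as the border macrophage markers, with DG 2 lowest. The averages of the astroglial (9.22), dividing (6.72) and mature oligodendrocyte (6.92) markers were also lowest in DG 2 among DG libraries. The low value of DG 2 is therefore not particular to macrophage and microglia markers. For Igf2, the 8 pericyte and smooth muscle markers averaged 9.14, 8.99, 8.55, 8.84 and 7.97 log2 CPM in DG 1 to DG 5, the same order of libraries as Igf2. In SVZ they averaged 3.42, 1.84, 2.27 and 1.81, with SVZ 1 highest as for Igf2. The rest of the SVZ order differed, as SVZ 3 lay above SVZ 2 and SVZ 4 for these markers but was lowest for Igf2. The averages of the endothelial, fibroblast and meningeal, and oligodendrocyte precursor markers were also highest in SVZ 1 among SVZ libraries. The match in SVZ 1 is therefore not particular to the pericyte and smooth muscle markers. The fibroblast and meningeal markers summed to 676.9 to 1446 CPM in DG and 25.1 to 87.3 in SVZ. The 4 measured of 7 choroid plexus markers summed to 3.54 to 183.2 CPM in DG, with the maximum in DG 2, and to 7.90 to 19.4 in SVZ. Of these 4 markers, limma called 3 higher in SVZ and 0 higher in DG, and Ttr (log2 fold change 2.32) was not called. The part of these cell types in the ligand differences was not tested. In such bulk samples, fewer cells of a type and less RNA per cell cannot be told apart.

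The genes whose levels over the 9 libraries were most like those of a ligand gene are named here as a description. For Igf1 they were F13a1 (Pearson r = 0.99, and 0.93 for deviations from the group means), Cd163 (0.99 and 0.86) and Stab1 (0.99 and 0.89). F13a1 and Cd163 are among the border macrophage markers, and Stab1 encodes a scavenger receptor of macrophages and some endothelia. Closest to Igf2 were Mylk (0.999 and 0.98), the kinase of smooth muscle myosin, the integrin gene Itga1 (0.997 and 0.95) and Notch3 (0.996 and 0.94), a receptor of mural cells. These are the highest of 9454 well-expressed genes compared, and over the 9 libraries they mostly follow the gap between the regions.

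**Figure D3:**
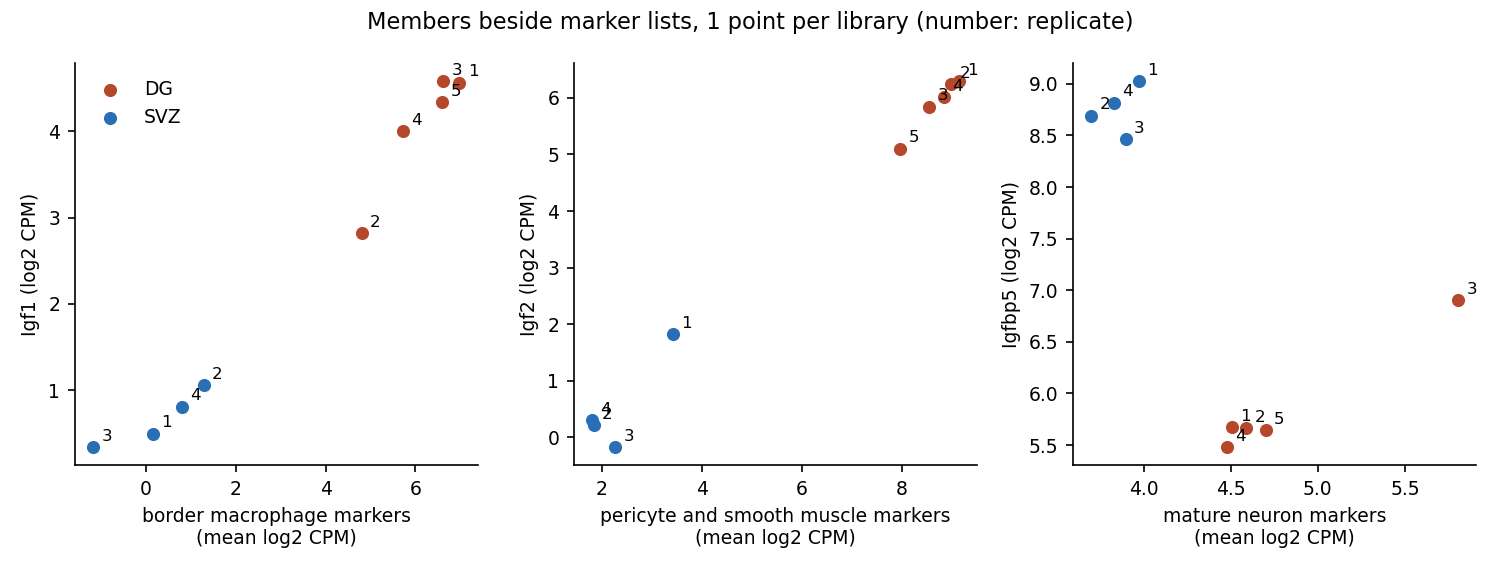
Igf1, Igf2 and Igfbp5 (vertical axes, log2 CPM) beside the mean of border macrophage, pericyte and smooth muscle, and mature neuron markers (horizontal axes, log2 CPM), 1 point per library with its replicate number. Igf1 is lowest among DG libraries in DG 2, where macrophage markers average 4.80, and Igfbp5 is highest among DG libraries in DG 3, where mature neuron markers average 5.80. Of these neuron markers, Syt1 had the largest SD over DG libraries (1.68).

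The receptor genes differed less. Igf1r (ENSMUSG00000005533, chromosome 7, 67952827 to 68233668, plus strand), the signalling receptor, stood at 4.83, 5.19, 4.98, 4.82 and 4.56 log2 CPM in DG 1 to DG 5 and at 5.67, 5.11, 5.37 and 6.12 in SVZ 1 to SVZ 4. It was 1.62-fold higher in SVZ (log2 fold change -0.69, SE 0.20, limma adjusted p = 0.00913), although DG 2 lay above SVZ 2. The insulin receptor gene Insr, whose product also binds the ligand of Igf2, was 1.97-fold higher in SVZ without overlap (-0.97, SE 0.23, limma adjusted p = 0.00339). Igf1r, Insr and Igfbpl1 had the same order of SVZ libraries, from SVZ 4 down through SVZ 1 and SVZ 3 to SVZ 2. This order is not particular to them. The pathway genes Akt1, Pik3ca, Jak2, Sos1 and Gab1 and the average of the neuroblast markers had it too.

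Igf2r (ENSMUSG00000023830, chromosome 17, 12682406 to 12769664, minus strand) missed the threshold. Its values of 5.08, 5.07, 5.36, 5.03 and 4.50 log2 CPM in DG 1 to DG 5 overlapped the 5.05, 4.26, 4.61 and 4.99 of SVZ 1 to SVZ 4. The difference was 0.28 with a 95% interval from -0.16 to 0.72 (limma adjusted p = 0.235), and it was 0.12 without SVZ 2. Airn, the antisense RNA that silences the paternal Igf2r copy in many tissues, was higher in DG (2.10, SE 0.43, limma adjusted p = 0.00114), from 38 to 79 reads in each DG library and 5 to 19 in each SVZ library. Of its exon length, 3.17% lies inside the Igf2r gene, on the other strand. The libraries do not mark the strand, so reads of Airn and unspliced Igf2r there cannot be told apart.

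Most like Igf1r over the 9 libraries were Rb1cc1 (r = 0.98, and 0.97 for deviations from the group means), Ash1l (0.98 and 0.95) and Soga1 (0.98 and 0.95). Rb1cc1 encodes an autophagy scaffold and Ash1l a histone methyltransferase. For Igf2r they were Kat2b, a histone acetyltransferase gene (0.95 and 0.94), Prickle2 (0.95 and 0.94) and Amotl1 (0.93 and 0.95). Here the deviations within groups were about as similar as the levels.

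Binding protein genes went in both directions. Igfbp7 (ENSMUSG00000036256, chromosome 5, 77349240 to 77408041, minus strand), whose product is a matrix protein of blood vessels with low affinity for IGFs, had the largest difference of the members. It stood at 4.07, 3.99, 3.90, 4.02 and 3.64 log2 CPM in DG 1 to DG 5 and at -1.20, -1.65, -1.995 and -2.72 in SVZ 1 to SVZ 4. The DG libraries were close together and far above SVZ, at 512 to 591 reads each against 4 to 13. The difference was 56.3-fold (log2 fold change 5.81, SE 0.29, limma adjusted p = 5.49e-08). Polr2b on the other strand shares 7.03% of the exon length of Igfbp7 and had 10582 to 10986 reads in each SVZ library, so the few SVZ reads of Igfbp7 are uncertain. Endothelial markers summed to 877.7 to 1603 CPM in DG, with the maximum in DG 3, and to 7.39 to 51.5 in SVZ. The pericyte and smooth muscle markers, 8 of 8 higher in DG, were highest in DG 1 and lowest in DG 5, as Igfbp7 was. They summed to 5224 to 10940 CPM in DG and 66.3 to 157.3 in SVZ. The part of either cell type in the result was not tested.

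Igfbp5 (ENSMUSG00000026185, chromosome 1, 72857932 to 72874884, minus strand), which encodes a secreted protein that binds IGFs and the matrix, went the other way. It stood at 5.67, 5.66, 6.91, 5.48 and 5.64 log2 CPM in DG 1 to DG 5 and at 9.02, 8.69, 8.46 and 8.82 in SVZ 1 to SVZ 4. Every SVZ library lay above every DG library, and DG 3 was the highest DG library. The gene was 7.35-fold higher in SVZ (log2 fold change -2.88, SE 0.26, limma adjusted p = 2.82e-06). Without DG 3 the log2 fold change was -3.14. In DG 3 the 5 mature neuron markers averaged 5.80 log2 CPM, against 4.48 to 4.70 in the other DG libraries and 3.70 to 3.97 in SVZ. Of these 5, limma called 2 higher in DG and 1 higher in SVZ, and left 2 uncalled. Over the DG libraries the SD was 1.68 for Syt1 and 0.19 to 0.43 for the others, so the average need not stand for each marker. Neuroblast markers averaged 8.56 to 9.62 in DG and 10.9 to 11.2 in SVZ, and ependymal markers 1.28 to 2.38 and 3.71 to 5.31. Both averages were higher in SVZ, as Igfbp5 was, but within DG both were lowest in DG 3, where Igfbp5 was highest. The 5 dividing and 6 ventral GABAergic markers were also all higher in SVZ. The part of these cell types in the difference was not tested.

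Igfbp2 (ENSMUSG00000039323, chromosome 1, 72824503 to 72852474, plus strand) lies 5457 bases from Igfbp5, tail to tail, and missed the threshold. Whether the differences of these neighbours themselves differ was not tested. The gene, known from glia and choroid plexus, was covered by few reads, 27 to 73 per library in DG and 16 to 50 in SVZ. Its values were 1.14, 0.26, 0.84, -0.38 and 0.77 log2 CPM in DG 1 to DG 5 and 0.29, 0.25, 0.69 and -0.94 in SVZ 1 to SVZ 4, and the groups overlapped. The difference was 0.46, with a 95% interval from -0.44 to 1.35 (limma adjusted p = 0.336), and it was 0.12 without SVZ 4 and 0.30 without DG 1.

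Igfbp3 and Igfbp4 were higher in DG at low levels. Igfbp3 (ENSMUSG00000020427, chromosome 11, 7206086 to 7213923, minus strand), which encodes the main carrier of IGFs in blood, had 83, 55, 85, 37 and 93 reads in DG 1 to DG 5. In SVZ 1 to SVZ 4 it had 2, 1, 0 and 3 reads. The ratio of summed reads per total was 40.7 (exact 95% interval 18.5 to 112, for counting error only), and the log2 fold change was 4.80 (SE 0.48, limma adjusted p = 6.10e-06). That fold change depends on the prior count: it was 5.61 with 0.25 reads and 3.39 with 5 reads. The 6 oligodendrocyte precursor markers averaged 6.29 to 7.46 log2 CPM in DG and 2.662 to 3.804 in SVZ. Within DG they were lowest in DG 4, as Igfbp3 was, but the other DG libraries stood in another order. The mature neuron markers and the summed fibroblast and meningeal markers were also lowest in DG 4. By average log2 CPM, the fibroblast and meningeal markers were lowest in DG 5 (4.34, against 4.51 in DG 4). The part of these cell types in the result was not tested. Igfbp4 (ENSMUSG00000017493, chromosome 11, 99041244 to 99054392, plus strand), whose product is cut by pappalysin when bound to an IGF, stood at 2.42, 1.46, 2.42, 1.38 and 2.40 log2 CPM in DG 1 to DG 5. In SVZ 1 to SVZ 4 it was 0.93, 0.53, 0.95 and 1.18. DG 2 and DG 4 were the lowest DG libraries but remained above SVZ, and the gene was 2.17-fold higher in DG (1.12, SE 0.29, limma adjusted p = 0.00584). The averages of the border macrophage, microglia and mature oligodendrocyte markers were also lowest in DG 2 and DG 4 among DG libraries. For a higher level in DG, limma called 5 of 5 border macrophage, 4 of 6 mature oligodendrocyte and 0 of 6 microglia markers. It called 1 mature oligodendrocyte and 2 microglia markers the other way. Among SVZ libraries the border macrophage average was highest in SVZ 2 (1.28), where Igfbp4 was lowest. The microglia and mature oligodendrocyte averages were highest in SVZ 4, as Igfbp4 was, but lowest in SVZ 1. What these cell types add to the result was not tested.

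Igfbpl1 (ENSMUSG00000035551, chromosome 4, 45809468 to 45826923, minus strand), a related gene known from immature neurons, stood at 5.28, 5.71, 5.21, 5.34 and 5.61 log2 CPM in DG 1 to DG 5. In SVZ 1 to SVZ 4 it was 6.19, 5.60, 5.77 and 6.85. DG 2 and DG 5 lay above SVZ 2, so the groups overlapped, and the gene was 1.59-fold higher in SVZ (log2 fold change -0.67, SE 0.23, limma adjusted p = 0.0223). The call was lost without SVZ 1 (-0.64, adjusted p = 0.0517), and without SVZ 4 the difference was -0.42 (adjusted p = 0.0463). The neuroblast markers, 6 of 6 higher in SVZ, moved with this gene between the regions, and their part was not tested.

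By likeness over the 9 libraries, Igfbp7 was closest to Adgre5, Higd1b and Spry4 (r = 0.998, 0.997 and 0.997, and 0.85 each for deviations from the group means). Higd1b is a pericyte gene and Spry4 a feedback inhibitor of growth factor receptors. Igfbp5 was closest to Nras, Golm1 and Trp53i11 (0.99, 0.98 and 0.98, with 0.79, 0.85 and 0.78 for deviations). Nras, a Ras gene of the growth factor pathway, differed by -0.66. For Igfbp3 the closest were Ppfibp1, Tgfa and Pcdh15 (0.997, 0.995 and 0.994), of which Tgfa encodes a ligand of the EGF receptor and Pcdh15 a protocadherin of hair cells and oligodendrocyte precursors. Igfbp4 was closest to Ptpro, Tada2a and Nrros (0.97, 0.97 and 0.96), and Igfbp2 to Nol6, Tfcp2 and Phb (0.88, 0.86 and 0.84), the lowest values of the members. Igfbpl1 was closest to Zfp12, Slx4ip and Ddx3x (0.99, 0.98 and 0.98, with 0.98, 0.97 and 0.97 for deviations).

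Promoters are shown for the members with the largest differences in each direction, Igfbp7 and Igfbp5, for Igfbp3 and Igfbp4, which were higher in DG with Igfbp7, and for Igf1r. Each is the 250 bases before the RefSeq transcription start (GRCm38.p6, the mm10 build), 5′ to 3′ on the strand of the gene. Capitals mark matches on either strand to the TATA box, whose letters were searched as TATAAA, to the box spelled CCAAT, and to the GC box, searched as GGGCGG, and no matches of different motifs overlapped.
Igfbp7, chr5:77408046-77408295, minus strand: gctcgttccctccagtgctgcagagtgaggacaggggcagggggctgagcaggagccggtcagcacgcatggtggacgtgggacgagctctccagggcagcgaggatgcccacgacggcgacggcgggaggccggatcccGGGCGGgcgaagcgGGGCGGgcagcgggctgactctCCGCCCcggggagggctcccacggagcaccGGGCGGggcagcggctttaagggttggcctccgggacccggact
Igfbp3, chr11:7213924-7214173, minus strand: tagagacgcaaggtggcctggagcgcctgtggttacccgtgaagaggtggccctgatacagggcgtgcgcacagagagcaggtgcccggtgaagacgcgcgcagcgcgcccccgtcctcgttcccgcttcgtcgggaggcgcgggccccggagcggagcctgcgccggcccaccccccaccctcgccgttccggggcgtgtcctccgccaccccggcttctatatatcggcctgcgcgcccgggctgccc
Igfbp4, chr11:99040994-99041243, plus strand: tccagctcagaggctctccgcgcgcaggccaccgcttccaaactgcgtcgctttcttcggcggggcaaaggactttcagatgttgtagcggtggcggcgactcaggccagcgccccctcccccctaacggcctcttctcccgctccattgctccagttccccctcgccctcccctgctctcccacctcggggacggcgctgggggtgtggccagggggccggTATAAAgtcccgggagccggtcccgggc
Igfbp5, chr1:72874866-72875115, minus strand: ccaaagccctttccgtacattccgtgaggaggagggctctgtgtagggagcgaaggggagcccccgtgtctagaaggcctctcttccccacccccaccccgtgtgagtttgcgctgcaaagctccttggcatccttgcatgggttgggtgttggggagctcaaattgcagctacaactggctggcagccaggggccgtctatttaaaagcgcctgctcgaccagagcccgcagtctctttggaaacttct
Igf1r, chr7:67952007-67952256, plus strand: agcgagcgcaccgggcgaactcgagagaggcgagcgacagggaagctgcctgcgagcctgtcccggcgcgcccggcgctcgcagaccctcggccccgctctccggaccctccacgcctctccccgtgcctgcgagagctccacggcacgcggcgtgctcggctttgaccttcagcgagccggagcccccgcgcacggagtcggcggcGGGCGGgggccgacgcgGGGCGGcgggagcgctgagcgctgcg

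RefSeq starts were found for 9 of the 10 members, at 13 positions, 4 of them for Igf2 and 2 for Igfbp2. The GC box was found 4 times in the Igfbp7 promoter, 2 times in that of Igf1r and at 0 places in those of Igfbp3, Igfbp4 and Igfbp5. Over all starts, 5 members had it, Igf1r, Igf2, Igf2r, Igfbp2 and Igfbp7, whose differences went both ways. It occurs in 32.7% of 32851 promoters of the same length. The TATA box was found in Igfbp4 alone among the members and occurs in 12.4% of promoters, and the CCAAT box in Igf1 and Igf2, against 33.8%. CpG pairs numbered 26 in the Igfbp7 promoter, 32 in Igfbp3, 22 in Igfbp4, 42 in Igf1r and 10 in Igfbp5, where the median promoter has 6. A match is a description of the letters, and the table does not show which start was used.

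To compare levels between genes, reads were also scaled to exon length, as RPKM, which divides CPM by the exon length in kilobases. In DG, Igfbpl1 (13.4 ± 2.07, mean ± SD, n = 5), Igfbp7 (12.6 ± 1.41), Igf2 (10.9 ± 3.09) and Igfbp5 (10.5 ± 5.30) came first, and the ranges of neighbours in this order overlapped. Igf2r followed at 3.52 ± 0.71, below all 4 and above Igf1 (1.83 ± 0.71) and Igf1r (1.77 ± 0.29), which overlapped each other. Igfbp4 (0.96), Igfbp2 (0.81) and Igfbp3 (0.61) came last, with overlapping neighbours.

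The order in SVZ was different. Igfbp5 came first at 72.4 ± 11.7 RPKM (n = 4), then Igfbpl1 at 22.4 ± 9.31, and the libraries of each did not overlap with those of the next. Igf1r (2.92 ± 0.91) and Igf2r (2.91 ± 0.70) overlapped, with Insr at 2.85 ± 1.13. The other members were under 1 RPKM: Igfbp2 at 0.60, Igfbp4 at 0.42, Igf2 at 0.29, Igfbp7 at 0.22, Igf1 at 0.16 and Igfbp3 at 0.01. For Igf2, SVZ 1 stood at 0.61 and the other SVZ libraries at 0.15 to 0.21. From Igfbp2 down to Igf1 the ranges of neighbours overlapped. With the longest transcript as the length, 86 of 90 pairs of members (45 in each region) kept their order.

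Summed by role per length, ligand transcripts stood at 12.7 ± 2.96 RPKM in DG (n = 5) and 0.45 ± 0.21 in SVZ (n = 4), and Igf2 made up 84.6% ± 7.59 and 59.8% ± 14.7 of them. The 5 binding protein genes and Igfbpl1, 6 genes in all, summed to 38.9 ± 4.63 RPKM in DG and 96.1 ± 17.7 in SVZ. Igfbpl1 made up 34.9% ± 6.97 of that sum in DG and 22.9% ± 6.24 in SVZ. Igfbp7 made up 32.7% ± 5.38 and 0.23% ± 0.10, and Igfbp5 26.2% ± 9.34 and 75.8% ± 5.96. Among Igf1r, Igf2r and Insr, which summed to 6.67 ± 1.11 and 8.69 ± 2.63 RPKM, Igf2r made up 52.5% ± 3.59 in DG and 34.1% ± 3.87 in SVZ. These shares are descriptions and were not tested.

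**Figure D4:**
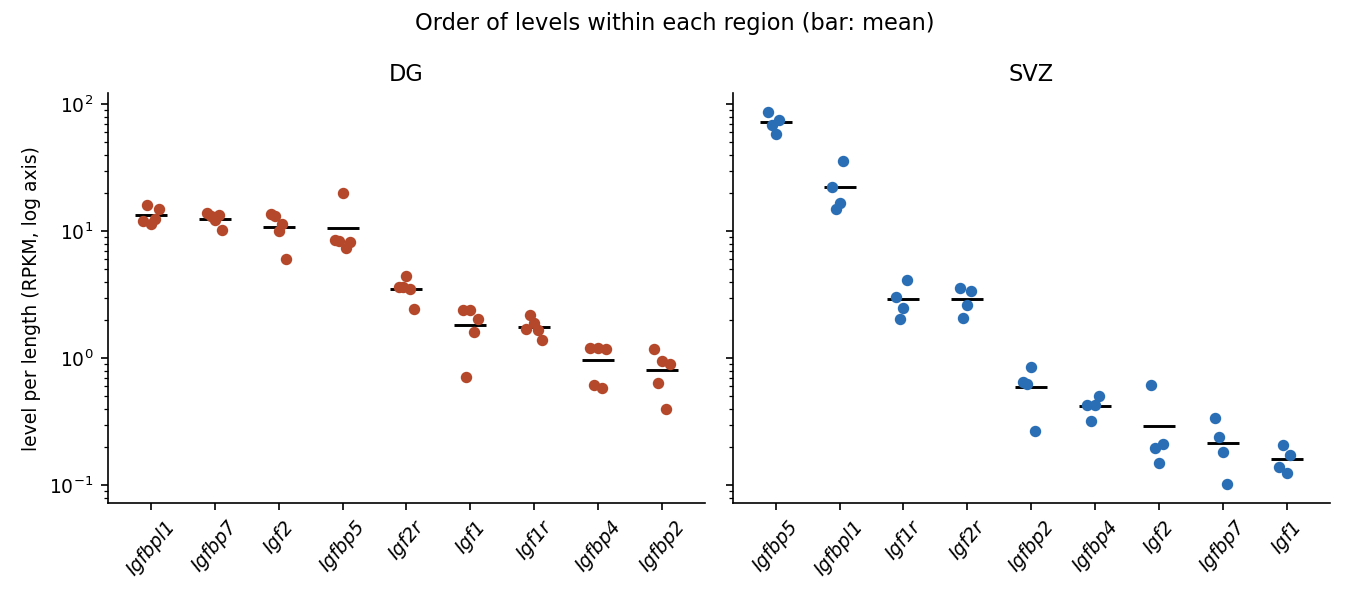
Level per exon length (vertical axis, RPKM, log axis) of the members in each DG (left) and SVZ (right) library, in descending order of the mean (bar). Igfbp3 is not drawn, as 1 SVZ library had 0 reads. Igfbp5 leads in SVZ at a mean of 72.4, and 4 members lie between 10.5 and 13.4 in DG.

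Outside the 10 members, 66 of 78 listed genes of the pathway were measured. Of these, limma called 16 higher in DG and 25 higher in SVZ, and left 25 uncalled, with a median log2 fold change of -0.31 against -0.07 for all genes. Of all genes 66.6% were called, 32.9% higher in DG and 33.7% higher in SVZ, so neither this count nor those of the smaller groups that follow are read as results about the pathway. The other ligand genes Ins1 and Ins2, and Igfbp1, Igfbp6 and Igfals, are not among the genes of the table.

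Of 6 measured genes for proteases of the binding proteins and their inhibitors, 3 passed as higher in DG and 2 as higher in SVZ, and 1 was not called. Pappa and Pappa2 encode the pappalysins, proteases that release IGFs by cutting binding proteins, and they went opposite ways. Pappa had 22, 11, 21, 15 and 9 reads in DG 1 to DG 5 and 215, 115, 138 and 206 in SVZ 1 to SVZ 4, and was 11.9-fold higher in SVZ (-3.58, SE 0.36, limma adjusted p = 6.02e-06). Pappa2 had 63, 52, 45, 41 and 58 reads in DG 1 to DG 5 and 1, 0, 1 and 0 in SVZ 1 to SVZ 4. Its ratio of summed reads per total was 89.7 (exact 95% interval 24.6 to 744), and its log2 fold change 5.09 (SE 0.40, limma adjusted p = 1.02e-06), which was 6.39 with a prior count of 0.25 reads and 3.27 with 5 reads. Stc1, which encodes the pappalysin inhibitor stanniocalcin, stood at 2.86, 4.72, 3.86, 2.89 and 2.03 log2 CPM in DG 1 to DG 5 and at 6.41 to 6.73 in SVZ (-3.30, SE 0.43). DG 2 was the highest DG library for Stc1, for Nes and for the averages of the ventral GABAergic, neuroblast and choroid plexus markers. DG 3 lay above DG 4 for Stc1 but below it for the ventral GABAergic markers (1.45 and 1.75). The part of these cell types in the result was not tested. Htra3 and Htra1, serine proteases that can cut binding proteins, were higher in DG by 3.64 and 2.15.

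In the growth hormone axis, which induces Igf1 in liver, limma called 3 of 6 genes higher in DG and 1 higher in SVZ. The receptor gene Ghr stood at 3.15, 2.76, 3.08, 3.01 and 2.74 log2 CPM in DG 1 to DG 5 and at -1.10, 1.13, 0.51 and 0.30 in SVZ 1 to SVZ 4, a 6.67-fold difference (2.74, SE 0.38, limma adjusted p = 6.89e-05). Stat5a (1.96) and Stat5b (0.64), transcription factors downstream of it, were also higher in DG, and the kinase gene Jak2 was higher in SVZ (-0.78).

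Next come the signalling genes behind the receptors. Of 11 receptor adaptors, 4 were higher in DG and 3 in SVZ. Gab1 (1.11), Shc1 (1.18) and Grb14 (1.43), an inhibitor of the insulin receptor, were higher in DG, and Grb2 (-0.81) and Sh2b2 (-1.40) in SVZ. Without SVZ 1 the difference of Grb14 was 0.94. Sos1 was called higher in SVZ (-0.42, limma adjusted p = 0.0493) and lost the call under 11 of 18 alternatives, among them leaving out DG 1, DG 2, DG 4, DG 5, SVZ 1 or SVZ 4 (-0.26 without SVZ 4). Of 13 PI3 kinase and Akt genes, 3 were higher in DG, the Akt phosphatase gene Phlpp1 (1.38), the regulatory subunit gene Pik3r3 (0.43) and the lipid phosphatase gene Inppl1 (0.84). The 4 higher in SVZ included Pik3ca (-0.83), a catalytic subunit, Akt1 (-0.79) and Pdpk1 (-0.42), the kinase that activates Akt.

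Of 17 genes for Akt targets and mTOR, 1 was higher in DG, the transcription factor gene Foxo1 (1.06), and 7 were higher in SVZ, among them Gsk3b (-0.81), Gsk3a (-0.74) and Foxo6 (-1.33). Of 9 Ras and MAP kinase genes, Map2k1 (1.32) was higher in DG and 6 were higher in SVZ, among them Nras (-0.66) and Mapk3 (-0.55). Among RNA regulators, Igf2bp2, whose product binds Igf2 mRNA, had 2, 2, 1, 5 and 4 reads in DG 1 to DG 5 and 33, 53, 73 and 50 in SVZ 1 to SVZ 4. It was higher in SVZ (-4.05, SE 0.42, limma adjusted p = 8.67e-06), opposite to Igf2 itself. The log2 fold change of Igf2bp2 was -4.43 with a prior count of 0.25 reads and -3.00 with 5 reads. Its ratio of summed reads per total was 21.6 (exact 95% interval 12.6 to 40.1).

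**Figure D5:**
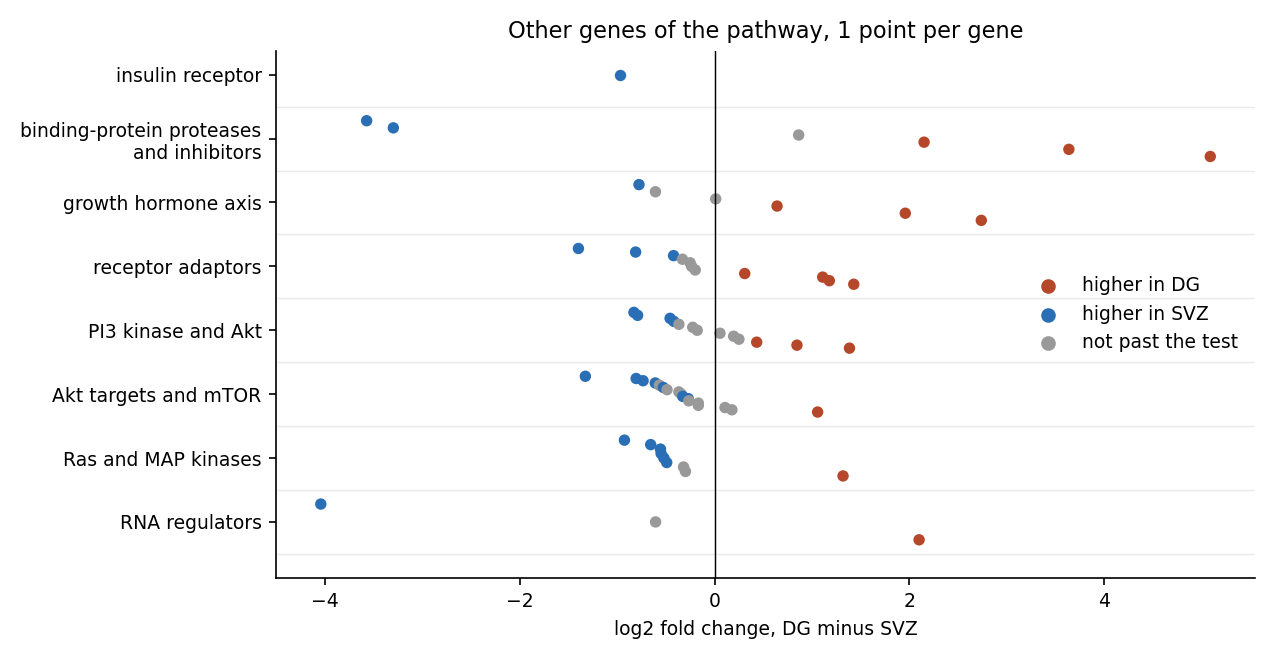
Log2 fold change (horizontal axis, DG minus SVZ) of the 66 other measured pathway genes, 1 point per gene, by group and coloured by the test. The 25 genes higher in SVZ include Pappa at -3.58 and Igf2bp2 at -4.05, and the 16 higher in DG include Pappa2 at 5.09.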

How the data were processed

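RNA-seq libraries of sorted nestin-reporter cells, 5 from DG and 4 from SVZ, were analysed from 1 deposited table of 14477 genes. Per the labels' protocols, cDNA was primed with poly-dT, amplified over its full length and sheared, and the library kit keeps no strand information. STAR, edgeR and the build mm10 were used by the authors, per the submitters' processing notes, while the sources used here give no versions, gene counter, annotation release or low-count filter. The values deposited by the authors are log2 CPM with a prior count of 1 read scaled by library totals alone, as rebuilding them showed (largest difference 5.33e-14). Whole reads were recovered for 100% of values (tolerance 0.001 reads) and used for read counts, RPKM and alternatives. Without molecular identifiers, reads are not independent molecules, and an interval on reads covers only counting error. The exact interval on a ratio of reads is conditional binomial (Clopper-Pearson).

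All 14477 genes were fitted with limma 3.58.1 in R 4.3.3 (mean-variance trend, region as the only term, Benjamini-Hochberg adjusted p under 0.05 over all genes), after a test of the fit on simulated data. Count models were not run: the test was chosen by the deposited unit, log2, although whole reads were recovered. Symbols and exon lengths (union of exons) came from GENCODE M21, with 14433 identifiers matched and 44 not, and promoters from RefSeq. The members and gene lists were chosen with earlier results of these data known. Named pathway genes are up to 3 per list and direction with the smallest adjusted p, and Insr whatever its result. Likeness is the Pearson correlation of log2 CPM over 9 libraries among genes with a mean of at least 3, giving 3 genes per member, without clone or predicted-gene names. No 2 libraries of a group held the same counts within noise (chi-square over its degrees of freedom, 19.4 or more). Alternatives covered scaling, prior count, a filter on low values, the test, the replicate block, left-out libraries and gene length.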

Additional observations from a re-analysis of the deposited data

Results flagged for a closer look

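Over 84 sets of values (the 10 members and 32 named pathway genes in each region), 3 had 1 library far from the rest by Dixon's criterion, which chance gives in about 1 of 20 sets. Igfbp5 stood at 6.91 log2 CPM in DG 3 and at 5.48 to 5.67 in the other DG libraries. Grb14 stood at -0.14 in SVZ 1 and at 1.64 to 1.91 in the other SVZ libraries. Pik3r3 stood at 7.53 in SVZ 3 and at 7.66 to 7.67 in the other SVZ libraries.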

How the results depend on the processing

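Counts of members and pathway genes called stayed within 1.5 times the reported ones under each alternative run. For the members, 175 of 178 differences under 18 alternatives kept their direction and their side of the threshold, and the exceptions were Igf1r with the replicate block (-0.61, adjusted p = 0.0513) and Igfbpl1 without SVZ 1 and without DG 2, DG 3 and SVZ 1 together (-0.66, adjusted p = 0.0878). With the replicate block on replicates 1 to 4, 5 members were higher in DG and 2 in SVZ. Same-numbered libraries did not deviate together (correlations of -0.17 to 0.01), so the numbers were not taken to pair them. For the named pathway genes 558 differences were likewise kept and 12 were not, 11 of Sos1 and 1 of Inppl1. The filter on low values (mean of at least 1 log2 CPM) left out Igfbp2 and Igfbp3. Median-of-ratios scaling moved the median of all genes from -0.07 to -0.04 and trimmed mean of M values scaling to -0.02. Few reads limit Igfbp3 and Igfbp7 in SVZ (6 and 33 over 4 libraries), Igfbp2, Pappa2 and Igf2bp2. The cause of each change was not tested.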
